A study of Mus musculus with 4 samples.

Results

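Islets of transgenic males that carried an implant of E2, the usual short name of the hormone estradiol, were compared with islets of wild-type males. The comparison takes 2 of the 4 arrays of the series, 1 per group. The groups were read from the sample labels, and the comparison was chosen with earlier results of these data known. Of 22339 genes with a RefSeq name, 14589 gave a signal well above background on both arrays and are called measured. A total of 6469 genes were well above background on neither array, and the others on 1 array only.

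All animals were C57BL/6 mice aged 24 weeks. Wild-type males form the group male WT. Transgenic males, labelled as diabetic, form male Tg, and those that had carried an E2 implant for 6 weeks form male Tg E2. That sample's title says E only and does not name E2, and its group was taken from its source name, which does. Transgenic females form female Tg. The transgene, its promoter, the E2 dose and the number of mice behind an array are not given in the sources used here, and a sham implant was not analysed here. Islets were freed by collagenase, separated on a density gradient and picked by hand, and their total RNA was hybridised to 1-colour Agilent arrays. With 1 array per group there is no replicate error and no test, so each difference below is one between single arrays. The male Tg and female Tg arrays are given beside the comparison as further values.

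Pancreatic islets hold insulin-producing beta cells together with alpha cells, which make glucagon, delta cells, which make somatostatin, and vessels, nerve endings and resident immune cells. They lie in exocrine tissue whose acinar cells make digestive enzymes under the control of the PTF1 complex, formed by Ptf1a and Rbpjl with a partner. Beta cells take up glucose through Slc2a2, metabolise it and secrete insulin when their potassium channels close. Estradiol acts on cells through the nuclear receptors Esr1 and Esr2 and the membrane receptor Gper1. Diabetic beta cells are known to lose mature genes and to gain genes that they normally keep off.

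The levels below are log2 processed intensities relative to the 75th percentile of the same array, and a difference of 1 is a 2-fold difference. Where 4 levels of a gene are given, they stand in the order male WT, then male Tg, then male Tg E2, then female Tg, and the male Tg E2 array is also called the implanted array. Levels of different genes come from different probes and are not compared with each other. The scanner software's error model gave measured genes a median standard error of 0.20 log2 for a difference, at most 0.45. For probes spotted several times the spots gave a difference a median standard deviation of 0.094 log2. Both describe technical error and not variation between mice. The values of dim genes depend on how background is removed. Where another scaling ended a 2-fold difference or moved a value by over 1.5 times, the log2 difference with normexp background correction and quantile normalization is given as the normexp value, or that of the scaling named. No spot was saturated, 49.9% to 54.8% of spots were well above background, and the 75th percentile of intensity lay between 230 and 410 over the 4 arrays. All 8 listed islet hormone genes were well above background on all 4 arrays, which goes with the tissue label. The 35 acinar genes with a probe were so too, and detection does not show how pure the islets were.

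Genes of the exocrine pancreas filled much of the high end of the comparison, and the promoters of their enzymes are shown first. The PTF1 complex is known to bind a pair of short elements, and the letters CACCTG and TTTCCC, on either strand, were looked up in RefSeq promoters (build GRCm38.p6) over the 250 bases before the gene start. Of 27 acinar genes with a promoter entry, 16 (59.3%) held CACCTG, 8 (29.6%) held TTTCCC and 6 (22.2%) held both. Among 17451 promoters in the table the shares were 19.2%, 25.3% and 4.33%. The elements were chosen after values were seen, and a match describes letters, not a bound site. The 4 stretches below, written 5′ to 3′ along the gene's strand with both elements in capitals, are those of acinar genes in which the pair lay closest together.
Prss1, a trypsinogen, chr6:41458809-41458854, plus strand: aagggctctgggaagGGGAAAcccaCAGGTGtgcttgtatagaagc
Cela1, an elastase, chr15:100687999-100688044, minus strand: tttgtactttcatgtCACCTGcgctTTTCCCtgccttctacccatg
Cel, carboxyl ester lipase, chr2:28563448-28563504, minus strand: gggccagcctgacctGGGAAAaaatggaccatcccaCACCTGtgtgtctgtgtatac
Cela3a, an elastase, chr4:137409989-137410041, minus strand: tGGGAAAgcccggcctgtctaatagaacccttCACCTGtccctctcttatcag
In Prss1 and Cela1 the elements stand 4 bases apart and share a strand, the gene's own in Cela1 and the opposite one in Prss1. In Cel they stand 15 and in Cela3a 25 bases apart. In these genes CACCTG is read on the gene's strand and TTTCCC on the opposite one. In the implanted islets all 4 genes stood above the wild-type level, by 3.46, 4.17, 3.43 and 2.43 log2 in the order printed.

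Across the genome more genes were higher than lower in the implanted transgenic islets. Of the 14589 measured genes, 1278 were at least 2-fold higher on the male Tg E2 array than on the male WT array (8.76%) and 395 at least 2-fold lower (2.71%), together 11.5%. The imbalance grew with the size of the difference: 335 genes were at least 4-fold higher against 39 lower, 122 at least 8-fold higher against 5 lower, and 50 at least 16-fold higher against 0 lower. Over all measured genes the difference had a median of −0.10 log2 and an interquartile range of −0.33 to 0.23. Higher genes were 76.4% of those past 2-fold, and 61.4% when arrays were centred on the median of all probes instead, which put the median difference at −0.28. Relative to the median of −0.10, 1419 genes passed 2-fold upward and 307 downward. In addition, 411 genes detected above background on male Tg E2 but not on male WT were at least 2-fold higher, and 69 genes in the opposite case were at least 2-fold lower. For these the dim array is held at its background limit, and the fold is a lower bound. The limit was −4.43 on male WT and −3.91 on male Tg E2. An upward bound could thus pass 2-fold from a lower level than a downward one, which adds to the imbalance of these counts.

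**Figure D1:**
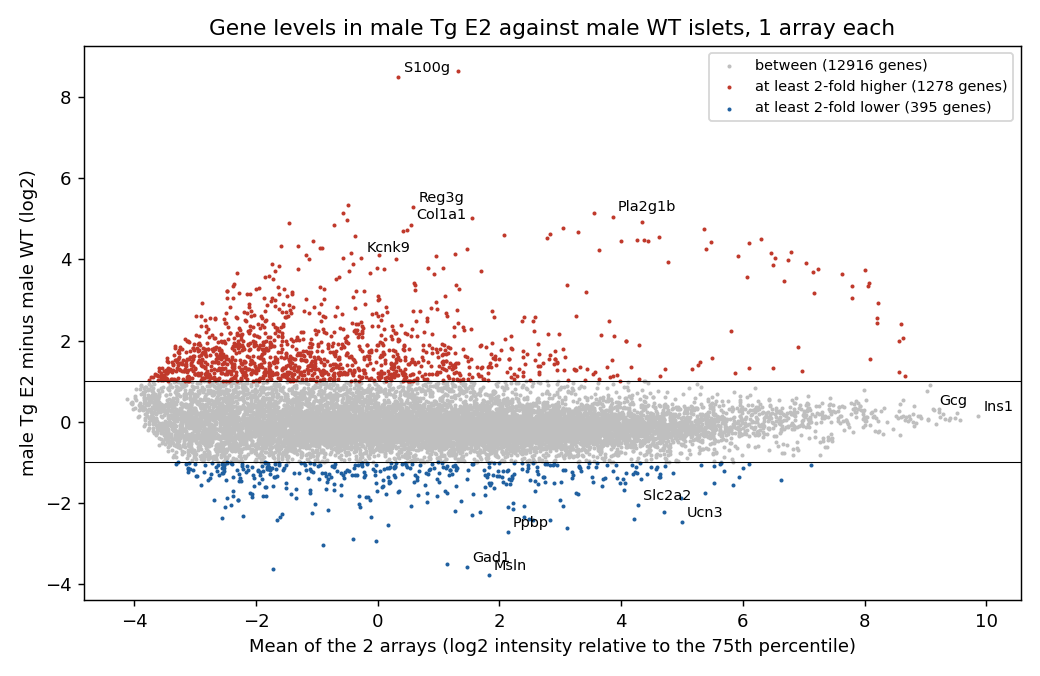
Each dot is 1 of 14589 measured genes, placed by its mean log2 level on the male WT and male Tg E2 arrays and by the log2 difference between them, with lines at 2-fold. Most dots form a band between the lines, 1278 lie above and 395 below, and the widest spread upward is in dimmer genes.

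The untreated male Tg array, set against the same male WT array, gave 14387 measured genes, with 15.5% past 2-fold upward and 9.15% past 2-fold downward. Since both comparisons use the 1 male WT array, its own deviations enter both, and the values are only set side by side. They carry no test of what the implant did.

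The extremes mixed genes that are known from several cell types. Among the 15 highest genes were the trypsinogen-region genes 1810009J06Rik and 2210010C04Rik, Pla2g1b (pancreatic phospholipase), Cuzd1 (a zymogen granule protein), Pdia2 (a protein disulfide isomerase of the pancreas) and Cckar, the cholecystokinin receptor that triggers enzyme release. The others were S100g, Reg3g, Reg3d, Klk1b11 (a kallikrein), Tff2 (a trefoil peptide), Glycam1 (a mucin-like ligand of L-selectin), Ptger3 (a prostaglandin E receptor), Col1a1 and Itih4 (a plasma protein of the liver). Their differences ran from 4.76 log2 for Pdia2 to 8.64 log2 for 1810009J06Rik. The normexp values were 7.0 for 1810009J06Rik, 3.57 for Klk1b11, 3.53 for Cckar, 3.24 for Itih4 and 2.80 for Ptger3. The 15 lowest genes ran from −2.40 log2 for Sox5 to −3.78 log2 for Msln, and mixed beta cell genes such as Ucn3, Gad1 and Plut with the platelet genes Ppbp and Alox12.

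**Figure D2:**
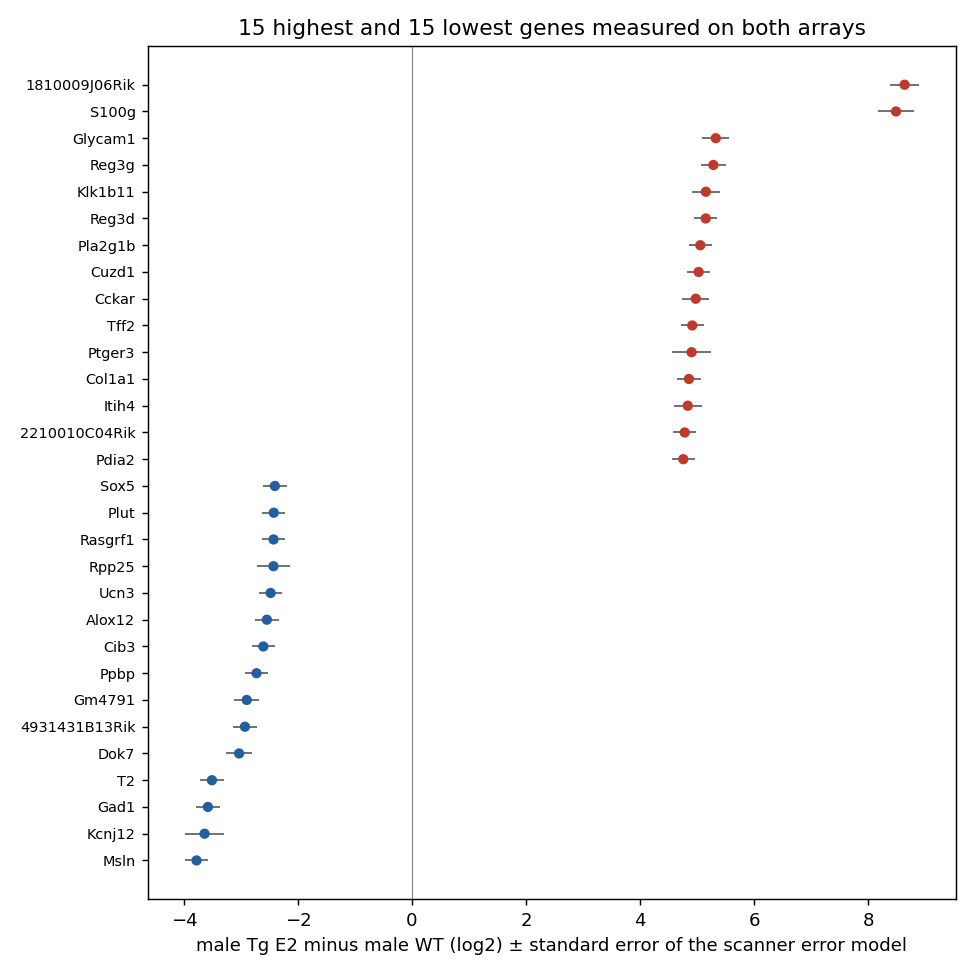
The 15 genes with the highest and the 15 with the lowest log2 difference of male Tg E2 minus male WT among measured genes, with bars of 1 standard error from the scanner error model (technical error only, 1 array per group). 1810009J06Rik (8.64) and S100g (8.49) stand above the next gene, Glycam1 (5.33), and the lowest are Msln (−3.78), Kcnj12 (−3.64) and Gad1 (−3.58).

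S100g, a small calcium-binding protein of the gut and an estrogen-responsive gene of the uterus, gave the second largest difference, after 1810009J06Rik. It read −3.91 on the male WT array, 5.99 on male Tg, 4.58 on male Tg E2 and 0.90 on female Tg. The implanted array was thus 360-fold above the wild-type array (8.49 ± 0.32 log2, standard error of the error model), and both of its probes gave nearly the same value (8.42 and 8.49). The wild-type level lay close to the dimmest signals called above background, and with normexp background correction and quantile normalization the difference was 6.20. Among the 14 measured S100 genes 4 were higher and 1 lower (8.76% and 2.71% of all genes), and the list median was 0.36. S100a6, S100b and S100a5 were higher by 1.58, 1.54 and 1.48 log2, and S100a3 was lower by 1.32 log2 (2.50-fold). The normexp values of S100b and S100a5 were 0.95 and 0.53, short of 2-fold, and 2 of the 14 genes were then higher.

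Acinar genes were nearly all higher on the implanted than on the wild-type array. Of 35 measured genes on the list 32 were at least 2-fold higher and 0 lower, with a median of 3.57 log2 against −0.10 for all genes. The list covers trypsinogens, chymotrypsins, elastases, carboxypeptidases, lipases and their regulators. Cuzd1 read −0.96, 5.30, 4.07 and −0.86 on the 4 arrays, a difference of 5.03 log2 (32.6-fold) between the implanted and the wild-type array. Pla2g1b read 1.33, 7.20, 6.39 and 1.97 and was 33.3-fold higher by 1 probe, while its other probe gave 3.95 log2. In these and in the other acinar genes plotted by array, male Tg E2 lay below male Tg and far above the other arrays, which were close to each other.

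The acinar transcription factors differed unequally. Ptf1a, the acinar lineage factor, read −3.30, 1.67, 1.16 and −3.22 and was 22.1-fold higher on the male Tg E2 array than on the male WT array. Rbpjl, its acinar partner, read −0.79, 5.30, 3.34 and −0.59 and was 17.6-fold higher. Nr5a2, a nuclear receptor of acinar cells, was 2.83 log2 higher. Ptf1a and Nr5a2 had normexp values of 2.80 and 1.87. Bhlha15 (Mist1), which acinar cells share with other secretory cells, read 3.70, 4.48, 3.87 and 3.64 and differed by 0.17 log2. With Amy1 and Gatm it was 1 of the 3 measured list members between the 2-fold lines. Amy2a4, a pancreatic amylase, was above background on every array but male WT and was at least 20.6-fold higher on male Tg E2.

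Summed over the 35 acinar genes with a probe, the scaled intensity, in multiples of the array's 75th percentile, was 1987 on male WT, 23264 on male Tg, 14219.8 on male Tg E2 and 2147 on female Tg. None of these genes was below background on any array, so acinar transcripts were also detected in the wild-type islets. In bulk RNA a different number of cells of a type and a different amount of RNA per cell cannot be told apart. The share that acinar RNA has in the differences of other genes was not tested.

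The Reg genes, secreted lectins made by acinar cells and by injured islets, went with the acinar genes. Of the 7 members measured 6 were at least 2-fold higher and 0 lower, with a median of 4.24 log2. Reg3g read −2.06, 5.18, 3.23 and −1.03 on the 4 arrays and was 39-fold higher on the implanted than on the wild-type array (normexp value 4.26). Reg3d read 0.97, 7.58, 6.12 and 0.84 and was 35.6-fold higher. Reg2 read 4.05, 9.36, 8.56 and 2.25, so its female Tg level was the lowest of the 4 arrays. Reg4, a gut member, read −2.29, 0.21, −1.50 and −1.74 and differed by 0.79 log2. Of the 7 Reg promoters 5 held CACCTG, 4 held TTTCCC and 2 held both.

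Mouse chromosome 6, which carries the trypsinogen and Reg clusters, had the highest share of higher genes among the chromosomes plotted. Of its 741 measured genes 104 were at least 2-fold higher (14%), against 8.48% of the genes elsewhere. The 13 measured acinar and Reg genes on it were all higher, and without them 91 of 728 genes (12.5%) remained. These 91 still hold trypsinogen-region genes outside the lists, such as 1810009J06Rik and 2210010C04Rik. The share elsewhere also keeps its own acinar list genes. On build mm9 the stretch from 39 to 43 Mb, which holds the trypsinogen genes, had 12 higher genes of 38, and that from 77 to 80 Mb, which holds the Reg genes, 7 of 8. The share of higher genes also moved with the level: over 4 equal bins from the dimmest to the brightest genes it was 18.1%, 10.01%, 4.0% and 2.91%. For lower genes the shares were 3.34%, 2.82%, 2.44% and 2.22%.

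**Figure D3:**
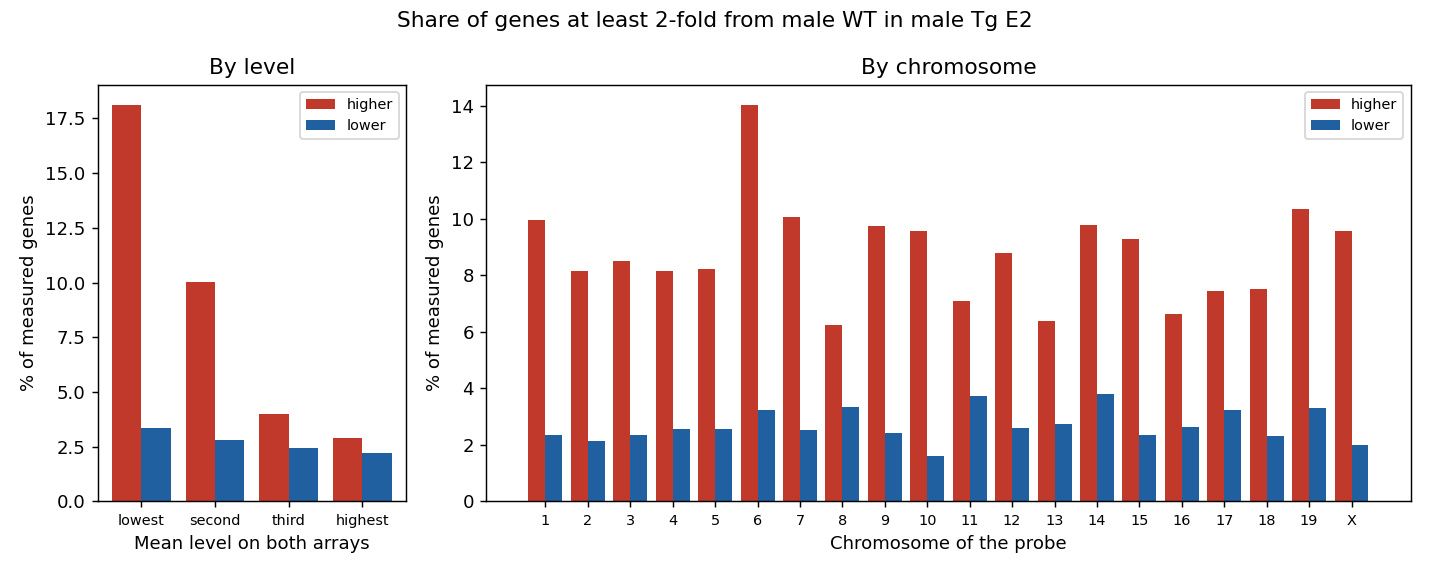
Bars give the percent of measured genes at least 2-fold higher (red) or lower (blue) on the male Tg E2 than on the male WT array, by mean level on both arrays in 4 equal bins and by chromosome of the probe. The share of higher genes falls from 18.1% in the dimmest to 2.91% in the brightest bin, and chromosome 6 has the tallest red bar (14%).

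Ductal genes, which line the exocrine outflow, were mixed. Of 14 measured members 5 were at least 2-fold higher and 0 lower, with a median of 0.40 log2, and 3 further genes had an upward bound of at least 2-fold. Tff2, counted here and a mucosal trefoil peptide, read 1.88, 7.72, 6.80 and 2.52 on the 4 arrays and was 30.2-fold higher on male Tg E2 than on male WT. Onecut1, Spp1 (osteopontin), Krt19 and Car2 were higher by 3.15, 2.27, 1.59 and 1.35 log2, with normexp values of 1.92 for Onecut1 and 0.73 for Car2, the latter short of 2-fold. The duct keratin Krt7 differed by −0.16. Tff1, a trefoil peptide known as an estrogen target, was above background on the male Tg array alone, with a level of 2.57. Its probe is placed on mm9 at chr5:143285577-143285636 and that of Tff2 on chromosome 17, and whether it reads Tff1 was not checked.

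Water channels had a median of 2.12 log2 over 7 measured members. Aqp12 and Aqp8, which acinar cells are known to express, were higher by 4.71 and 3.05 log2, and Aqp4 by 2.73. Aqp12 and Aqp8 had normexp values of 3.79 and 1.72. Aqp3, which carries water and glycerol, went the other way: it read −1.32, 0.31, −3.26 and −2.24, so that the implanted array was the lowest and lay 3.82-fold below the wild-type array, or by −1.03 log2 as normexp value and −0.98 with normexp correction and the 75th percentile, short of 2-fold.

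Most connective tissue genes listed were higher on the implanted array. Of 25 measured genes of stellate cells, pericytes and matrix 18 were at least 2-fold higher and 0 lower, with a median of 1.87 log2, and 4 further genes had a bound above 2-fold. Col1a1, the main chain of fibrillar collagen, read −1.88, 2.62, 2.98 and 0.65 on the 4 arrays, a 29.0-fold difference. Lum (lumican, which spaces collagen fibrils) read −3.06, 0.97, 1.23 and 0.06 and was 19.5-fold higher. Col3a1 read −1.09, 3.14, 3.0 and 1.27 and was 17.0-fold higher. For Col1a1 and Lum the implanted array was the highest of the 4, whereas for Dcn (decorin), with 1.84, 5.70, 5.03 and 4.69, it came after male Tg. The normexp values of Col1a1, Lum and Col3a1 were 4.04, 2.87 and 3.44, and the list median was between 1.25 and 1.87 over the scalings.

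The matrix difference was uneven among cell types on that list. Col6a2, the protease inhibitor Timp1, Col1a2, Col6a1 and the collagen crosslinking enzyme Loxl1 were higher by 3.72, 3.57, 3.37, 3.36 and 3.01 log2, and Col5a1 at least 16.9-fold. For Col6a2, Timp1 and Loxl1 the normexp values were 2.18, 1.85 and 1.79. Pdgfra, a receptor of fibroblasts, was at least 9.28-fold higher. The pericyte genes Pdgfrb, Rgs5 and Cspg4 differed by 1.05, 0.30 and −0.20, and the basement membrane collagens Col4a1 and Col4a2 by 0.37 and 1.06. Acta2, on the same list, was higher by 1.32 and stayed past 2-fold under the other scalings (1.14 to 1.38). Pdgfrb was short of 2-fold as normexp value (0.82), and Col4a2 when centred on the probe median (0.88). Mfap4, a microfibril protein outside the list, was at least 21.9-fold higher. Summed over the list the scaled intensity was 92.2, 313, 270.0 and 173 on the 4 arrays, so matrix genes on the implanted array stood near the male Tg array, and the female Tg array lay between. For endothelial genes 3 of 18 were higher, 0 lower, and the median was 0.28 log2, with Cldn5 (3.20), Sox17 (1.57) and Cdh5 (1.05) as the higher genes. Of these Cldn5 alone kept 2-fold as normexp value (2.03), with Sox17 at 0.80 and Cdh5 at 0.72. That left 1 of 18 endothelial genes, beside 639 of 14589 measured genes under the same scaling. On the main scaling 8.76% of all measured genes were higher.

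Some of the genes by which beta cells sense glucose and secrete insulin were lower on the implanted array. Of 25 measured members 8 were at least 2-fold lower, 0 higher and 17 between the lines, with a median of −0.61 log2, between −0.79 and −0.59 over all scalings tried. Ucn3 (urocortin 3, a peptide of mature beta cells) read 6.24, 1.83, 3.76 and 5.02 on the 4 arrays. The implanted array was 5.57-fold below the wild-type array (−2.48 ± 0.20 log2) and above the male Tg array. Slc2a2, the glucose transporter of mouse beta cells, read 5.30, 3.05, 3.24 and 3.70, a 4.18-fold lower level with little distance between the male Tg and male Tg E2 arrays. Trpm5, a cation channel that amplifies insulin release, read 3.22, −1.09, 1.22 and 2.35 and was 3.98-fold lower. The probes for these lie on mm9 at chr13:3940178-3940237 (Ucn3), chr3:28627016-28627075 (Slc2a2) and chr7:150257434-150257456 (Trpm5).

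The incretin receptors were both lower. Glp1r read 0.87, −1.50, −0.73 and 0.27 and was 3.04-fold lower on the male Tg E2 than on the male WT array. Gipr read 3.40, 0.79, 1.86 and 2.75 and was 2.91-fold lower. For both genes the order of the arrays was male WT, female Tg, male Tg E2 and male Tg. Sytl4 (granuphilin, which docks insulin granules), Pcx (pyruvate carboxylase) and Ero1b (an oxidase of the endoplasmic reticulum) were lower by 1.51, 1.42 and 1.13 log2.

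Some other genes of the same route stayed within 2-fold of the wild-type level. G6pc2, the islet glucose-6-phosphatase, read 6.69, 4.0, 6.34 and 5.50, so that the implanted array lay 0.35 log2 below the wild-type array and the male Tg array 2.69 below it. Kcnj11 and Abcc8, the subunits of the ATP-sensitive potassium channel, differed by −0.37 and −0.25. The zinc transporter Slc30a8 was further down, at −0.83, and past 2-fold as normexp value (−1.07). On the male Tg array 15 of the 25 genes of the list were at least 2-fold below the same wild-type array, and the list's summed scaled intensity was 1363, 732, 1078 and 1130 on the 4 arrays. In the same samples the acinar sum given above moved the other way, and its part in the lower beta cell values was not tested.

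Gad1, which makes GABA, gave the third lowest value of all measured genes. It read 3.25, −2.56, −0.33 and −0.53 on the 4 arrays, a 12-fold lower level on male Tg E2 than on male WT (−3.58 ± 0.21 log2) at mm9 chr2:70439699-70439758. The 3 transgenic arrays were all well below the wild-type array. Of the 8 measured genes of GABA synthesis, breakdown and reception it was 1 lower gene, against 1 higher, the receptor subunit Gabrg3 (1.5), which was short of 2-fold as normexp value (0.39). A further 2 genes of the list had an upward bound of at least 2-fold. Abat, which breaks GABA down, differed by −0.99, or −1.17 centred on the probe median. Gad2 was not above background on either array of the comparison.

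Among beta cell transcription factors the differences were smaller and mostly in 1 direction. Of 17 measured factors 2 were at least 2-fold lower, 0 higher and 14 below 0, with a median of −0.50 log2. As normexp values 1 was lower, and 4 were when centred on the probe median. Nkx6-1, needed for mature beta cell identity, read 6.14, 3.98, 5.10 and 5.43 on the 4 arrays and was 2.04-fold lower. Mnx1 was 2.64-fold lower, but short of 2-fold as normexp value (−0.74). Pdx1 read 1.41, −0.11, 0.53 and 0.48 (−0.88 log2, or −1.06 centred on the probe median), and Mafa, a driver of insulin transcription, read 3.03, 2.03, 2.30 and 2.76 (−0.73). Rfx6, Hnf4a and Glis3 were the measured factors above 0, at 0.06, 0.26 and 0.47. Of 15 factors measured against it on the male Tg array, 11 were at least 2-fold lower, with a median of −1.14. Plut, a long noncoding RNA beside Pdx1, read 3.77, 2.52, 1.34 and 2.16 and was 5.37-fold lower, with the implanted array the lowest.

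**Figure D4:**
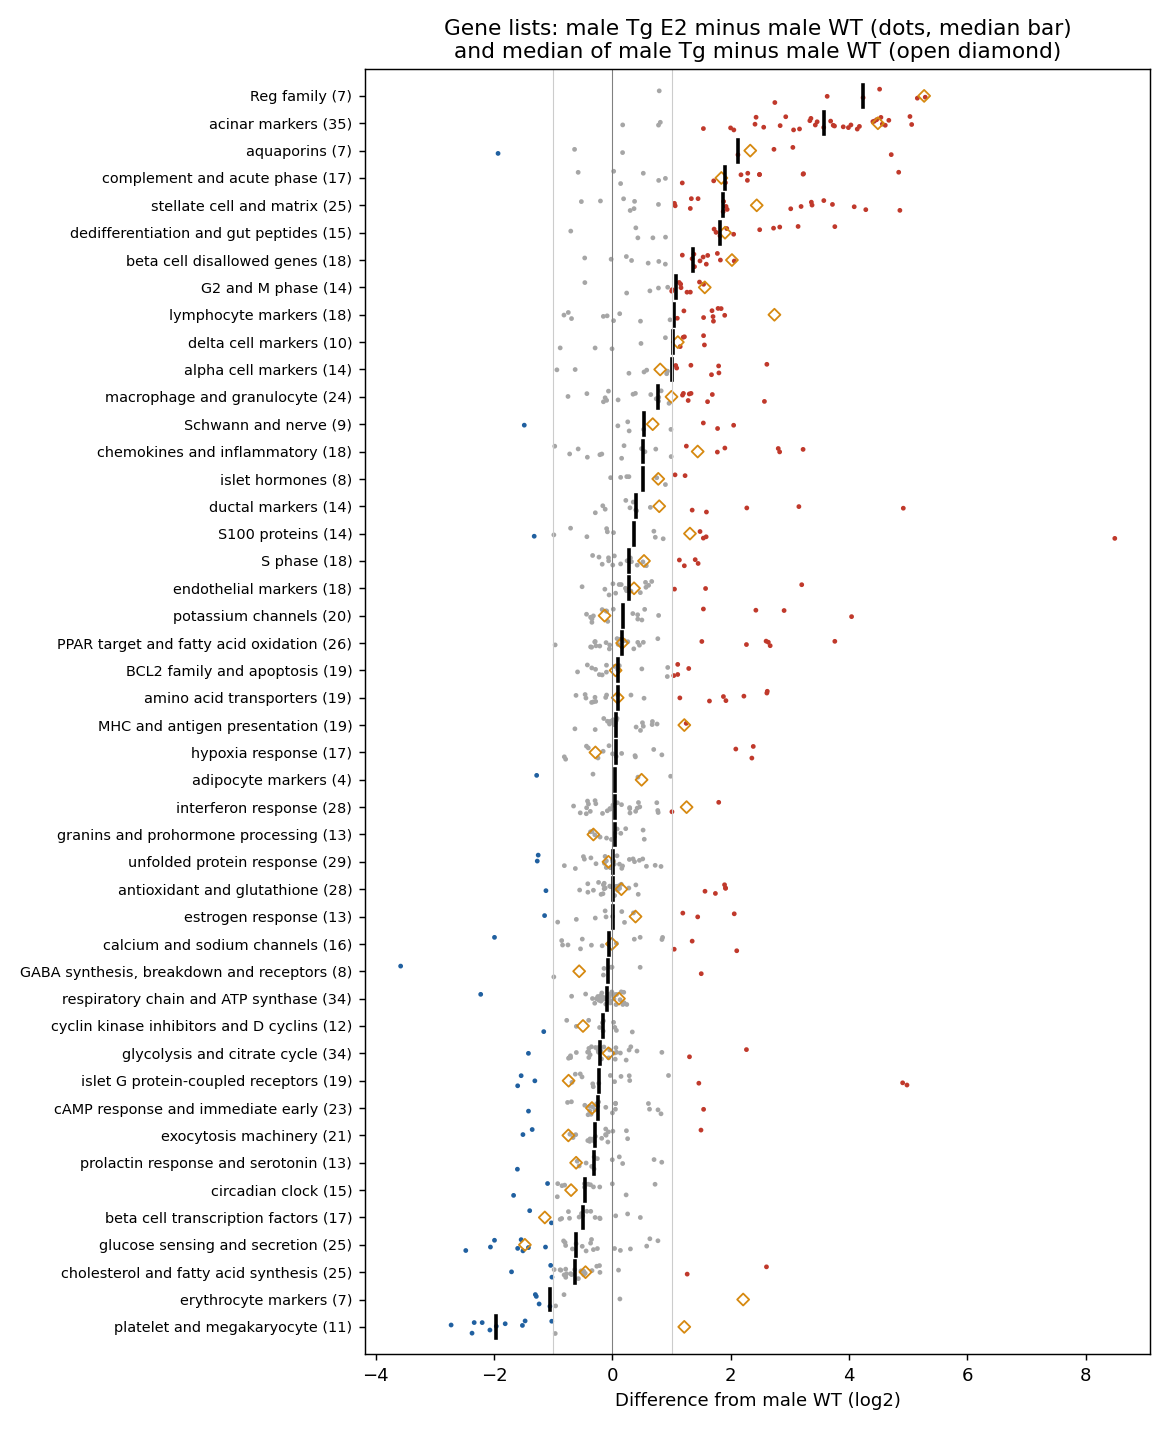
Dots give the log2 difference of male Tg E2 minus male WT for each measured gene of 46 lists (number measured in brackets; red at least 2-fold higher, blue at least 2-fold lower, grey between), black bars the list median, and open diamonds the median of male Tg minus male WT. Reg and acinar genes lie highest (medians 4.24 and 3.57), platelet genes lowest (−1.96), and 26 list medians fall within 0.5 of 0.

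None of the listed hormone genes was at least 2-fold lower. Ins1 read 9.79, 10.44, 9.93 and 9.91 and Ins2 9.10, 9.81, 9.35 and 9.18 on the 4 arrays. Their differences of 0.14 and 0.24 log2 were within 2 standard errors, and like that of Gcg (glucagon, 0.28) they changed sign under other scalings. The percentile used for scaling was 410 on male WT and 338 on male Tg E2, so equal intensities before scaling read higher on male Tg E2. The differences of Ins1, Ins2 and Gcg were no larger than that shift. Whether probes this bright can still show a difference was not tested, so these genes give no contrast with the secretion genes. Iapp, which beta cells secrete with insulin, differed by −0.03, or −0.65 with quantile normalization. Sst (somatostatin), Ppy (pancreatic polypeptide), Ghrl (ghrelin) and Pyy (peptide YY) differed by 0.90, 0.75, 1.06 and 1.23 log2, the last a pair past 2-fold. Neither held 2-fold under all scalings: Ghrl gave 0.88 centred on the probe median, and Pyy 0.82 with quantile normalization and in the authors' series matrix. Granins and prohormone convertases had 0 of 13 genes past 2-fold in either direction and a median of 0.04.

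Part of the alpha and delta cell markers were higher. Of 14 measured alpha cell genes 7 passed 2-fold upward and 0 downward, with a median of 1.0 log2 (0.82 and 5 genes as normexp values). A further 2 lay below 0, the lowest at −0.94, and centred on the probe median 5 were higher and 1 lower. Gcg, the alpha cell hormone given above, differed by 0.28. Irx2, a transcription factor of alpha cells, read −0.39, 1.15, 1.41 and 1.23 on the 4 arrays and was 3.48-fold higher on male Tg E2 than on male WT, and Slc38a5, the glutamine transporter linked to alpha cell growth, was 6.10-fold higher. For Irx2 the 3 transgenic arrays lay close together above the wild-type array. Of 10 delta cell genes 5 were higher and 0 lower, with a median of 1.02 log2, among them the delta cell factor Hhex (1.15), the ghrelin receptor Ghsr (1.22) and Cd24a (1.55). As normexp values the delta cell median was 0.54 with 3 higher genes, and Hhex (0.98) and Ghsr (0.52) were short of 2-fold. Centred on the probe median, 4 delta cell genes were higher and 1 lower. Pdx1 and Isl1, which beta cells share with delta cells, were the lowest of that list at −0.88 and −0.29.

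Genes that mature beta cells keep off, called disallowed genes, were in part higher on the implanted array. Of 18 measured members 11 were at least 2-fold higher and 0 lower, with a median of 1.36 log2. As normexp values 6 were higher, the median was 0.89, and Igfbp4 (0.95) and Maf (0.83) were short of 2-fold. Igfbp4 read −3.39, −0.56, −1.33 and −1.53 and was 4.17-fold higher on male Tg E2 than on male WT. Zfp36l1, Cxcl12 and Maf were higher by 1.82, 1.77 and 1.61 log2. Ldha, the lactate dehydrogenase chain that beta cells lack, read 4.22, 6.51, 4.83 and 4.68, so the difference of 2.29 on the male Tg array was 0.60 on the implanted array. Slc16a1, the lactate carrier, differed by −0.47. Many of these genes are common in acinar, duct and connective tissue cells, whose markers were also higher here, and the part of those cells was not tested.

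Many genes linked to beta cell dedifferentiation and to gut hormones were higher too. Of 15 measured members 10 were at least 2-fold higher and 0 lower, with a median of 1.82 log2 beside 1.90 on the male Tg array. Aldh1a3, a retinaldehyde dehydrogenase that marks failing beta cells, read 0.51, 3.03, 3.24 and 2.78 on the 4 arrays and was 6.60-fold higher. Neurog3, the endocrine progenitor factor, read 2.04, 2.96, 3.79 and 3.03 and was 3.37-fold higher. For both genes the implanted array was the highest of the 4. Gast (gastrin) read −3.66, 0.68, −0.52 and −2.65, and Fgf21, a secreted stress hormone that acinar cells also make, −3.84, 1.73, −1.01 and −2.64. They were 8.80-fold and 7.10-fold higher on male Tg E2 than on male WT and lay between the wild-type and male Tg arrays. Both were dim, with normexp values of 1.46 and 1.30, and the list median was then 1.30 with 8 higher genes.

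**Figure D5:**
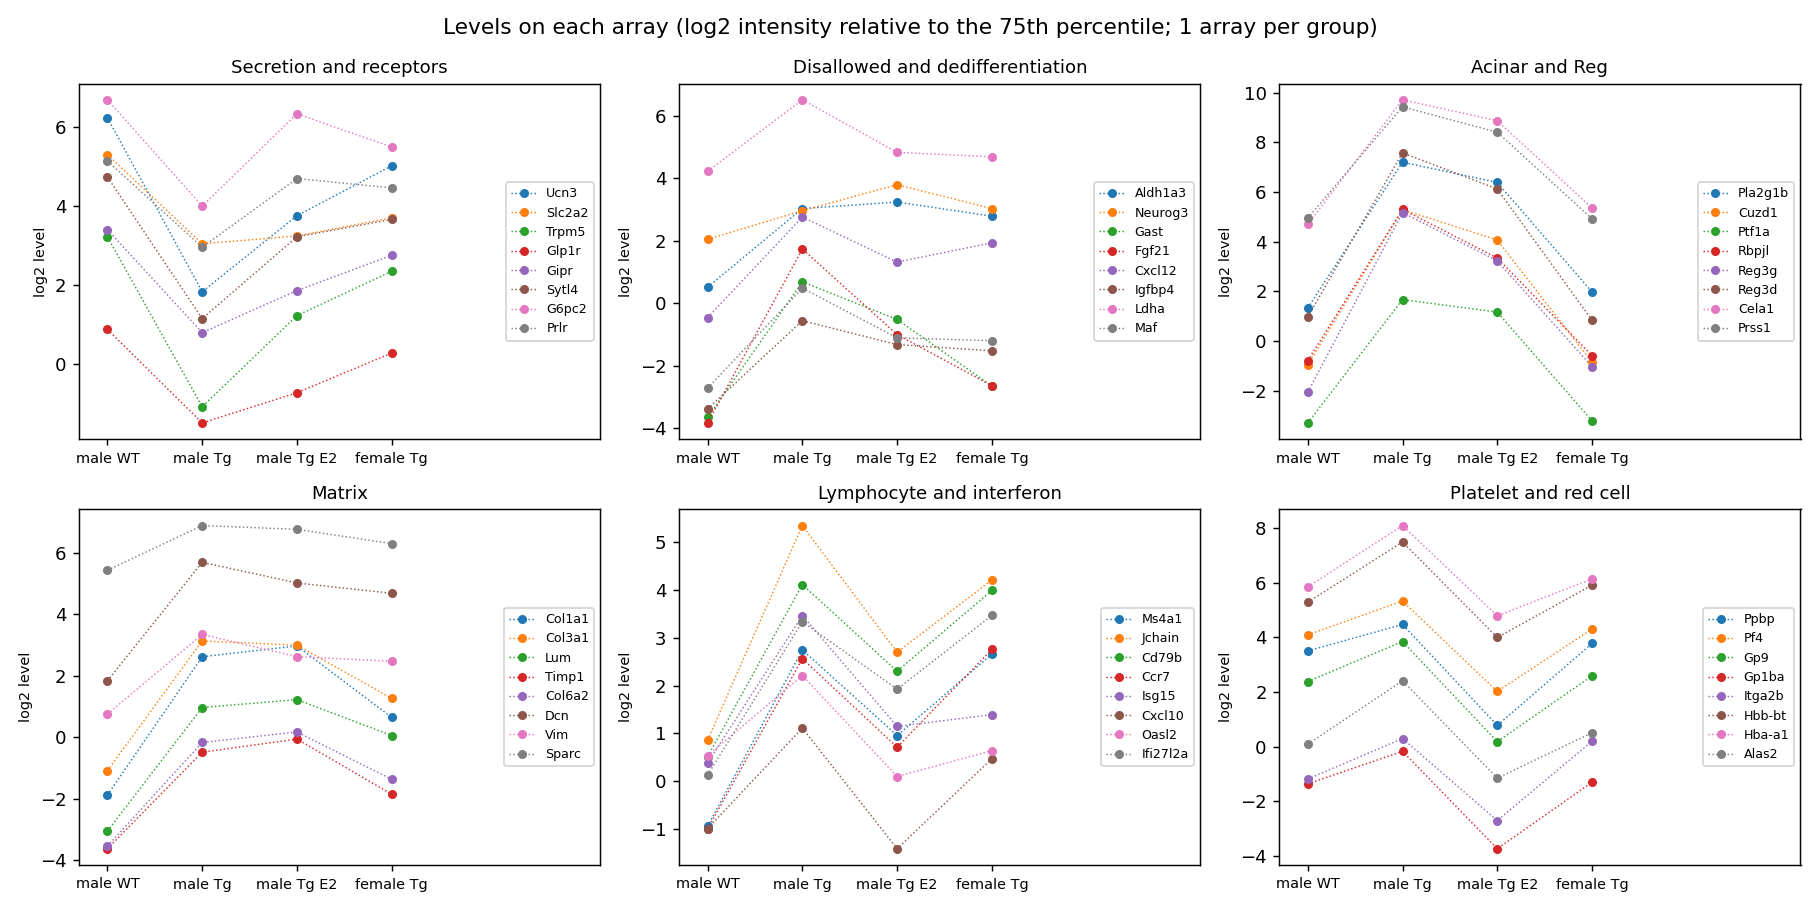
Log2 level, relative to the array's 75th percentile, of 48 genes on the 4 arrays (1 array per group, no error bars), in 6 panels by gene list; dotted lines join the values of 1 gene and do not stand for time. Acinar and Reg genes are high on male Tg and male Tg E2, platelet and red cell genes are lowest on male Tg E2, and Ucn3 and Sytl4 on male Tg E2 lie between male Tg and male WT.

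Platelet genes were the list with the lowest median. Of 11 measured members 10 were at least 2-fold lower on the implanted than on the wild-type array and 0 higher, with a median of −1.96 log2. Ppbp (platelet basic protein) read 3.50, 4.47, 0.77 and 3.77 on the 4 arrays and was 6.62-fold lower. Pf4 (platelet factor 4) read 4.09, 5.32, 2.02 and 4.30 and was 4.20-fold lower. Gp9, a subunit of the von Willebrand factor receptor, read 2.38, 3.84, 0.18 and 2.59 and was 4.60-fold lower. In each the implanted array was the lowest and the male Tg array the highest. Gp6, the platelet collagen receptor, was above background on the other 3 arrays, and at least 7.48-fold lower on the implanted than on the wild-type array. Alox12, the platelet 12-lipoxygenase and not on the list, read 1.44, 2.21, −1.10 and 1.71. The summed scaled intensity of the list was 50.3, 118, 11.8 and 61.1.

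Red cell markers were in part lower. Of 7 measured members 4 were at least 2-fold lower, the globins Hbb-bt and Hba-a1, the anion exchanger Slc4a1 and the heme synthesis enzyme Alas2, and 0 higher, with a median of −1.06 log2. With normexp correction and the 75th percentile 2 were lower. Hbb-bt, a beta globin, read 5.28, 7.49, 3.99 and 5.91, and Hba-a1, an alpha globin, 5.84, 8.09, 4.78 and 6.13. They were 2.44-fold and 2.08-fold lower on male Tg E2 than on male WT, and globin probes can also bind near-identical copies. Both globins had the order of arrays of the platelet genes. Slc6a4, the serotonin transporter, which platelets also carry, read −1.04, 0.26, −2.65 and −1.0, a difference of −1.61 with a normexp value of −0.91. How much blood stayed in each islet preparation was not measured, and its part in these values was not tested.

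Immune genes differed by class. Of 18 measured lymphocyte markers 9 were at least 2-fold higher and 0 lower, with a median of 1.03 log2, beside 2.74 on the male Tg and 2.93 on the female Tg array. As normexp values 5 were higher and the median was 0.63. Ms4a1 (CD20, a B cell marker) read −0.94, 2.75, 0.95 and 2.66, and Jchain, of antibody-secreting cells, 0.86, 5.35, 2.70 and 4.21, so the implanted array lay between the wild-type and the other transgenic arrays. The T cell gene Cd3e differed by −0.82, Cd3d by 1.21 (normexp value 0.69) and the killer cell gene Gzmb by −0.69. Of 24 macrophage and granulocyte genes 8 were higher and 0 lower, with a median of 0.77 log2, of which 5 were higher as normexp values. The higher genes were led by Mrc1 (CD206, 2.57, normexp value 1.1), Lyz2 (1.69) and Cd14 (1.61), and the neutrophil genes S100a8, S100a9 and Elane lay below 0.

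Interferon-stimulated genes stood near the wild-type level on the implanted array. Of 28 measured members 2 were at least 2-fold higher, Ifi27l2a (1.80) and Cxcl9 (1.01), and 0 lower, a share of the list no larger than that of all genes. Cxcl9 held 2-fold under none of the other scalings (normexp value 0.26). The median was 0.05 log2, with a sign that changed between scalings, while on the male Tg array 16 of 28 were higher and the median was 1.25. Isg15 read 0.38, 3.46, 1.15 and 1.39 on the 4 arrays, and Cxcl10 −0.99, 1.11, −1.41 and 0.47. Antigen presentation genes gave the same picture, with 1 of 19 higher (Ciita, the class II regulator, 1.25) and a median of 0.06 beside 1.21 on male Tg. As normexp values 0 were higher, with Ciita at 0.32. Psmb8, an immunoproteasome subunit, read 2.11, 3.33, 2.08 and 2.72.

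Most complement and acute phase genes listed were higher. Of 17 measured complement and acute phase genes 11 passed 2-fold upward and 0 downward, with a median of 1.91 log2 beside 1.84 on the male Tg array. C3, the central complement protein, read 2.56, 6.19, 5.05 and 5.42 on the 4 arrays and was 5.60-fold higher. Fgb, a fibrinogen chain, read −4.08, −3.37, −0.85 and −2.72, and Lcn2 (lipocalin 2) −1.83, −0.01, 1.39 and −1.88. For both the implanted array was the highest, 9.38-fold and 9.33-fold above the wild-type array. The normexp values were 1.44 for Fgb and 2.42 for Lcn2, and the list median was then 1.13 with 9 higher genes. Ahsg, a further liver protein, was at least 18.9-fold higher on it. Of 18 measured chemokine and inflammatory genes 6 were higher and 0 lower (median 0.52), led by Lcn2, Ccl8 (2.83), a monocyte chemokine, and the adhesion molecule Vcam1 (2.80), with normexp values of 1.38 and 2.06 for Ccl8 and Vcam1.

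Estrogen-related genes were few and gave no common direction. Esr1 was not above background on any array, and Esr2 read 2.95 on both arrays of the comparison. Of the 13 members measured 3 were at least 2-fold higher and 1 lower, with a median of 0.00 log2. Greb1, a classical estrogen target, read −1.82, −1.43, −0.37 and −2.43, the highest level being that of the implanted array, and its other probe gave a larger difference (1.44 and 3.51). Gper1 was higher by 1.19, and the transferrin receptor Tfrc lower by 1.15 log2 (2.21-fold). The other measured Tfrc probe gave −0.24, short of 2-fold. As normexp values 0 of the 13 passed 2-fold in either direction, with Greb1 at 0.91, Gper1 at 0.44 and Tfrc at −0.87. The palindromic estrogen response element, searched by its consensus letters on both strands from 250 bases before to 50 after the gene start, was in 0 of 927 promoters of higher genes and 0 of 312 of lower genes. It was in 2 of 11476 promoters of all measured genes, so these windows hold too few matches to describe a difference. The cAMP response element TGACGTCA was in 15 of 927 (1.62%), 7 of 312 (2.24%) and 398 of 11476 (3.47%).

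Prolactin signalling, which promotes beta cell growth, was close to wild type in its receptor. Prlr read 5.14, 2.96, 4.70 and 4.46 (−0.45 log2), and its target Cish 3.35, 1.96, 4.18 and 2.61 (0.83), the highest of the 4 arrays. Tph1, which makes serotonin in beta cells under prolactin, read −2.89, −0.39 and −2.19 on the male arrays and was not above background on female Tg. Of 13 measured genes of that list 1 was lower and 0 higher (median −0.31). Among cAMP-responsive and immediate early genes 1 of 23 was higher, Egr2 (1.54), and 1 lower, Npas4, an activity-induced factor of beta cells and neurons (−1.42), while Crem differed by −0.38. Egr2 was short of 2-fold as normexp value (0.86).

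Lipid genes split by pathway. Of 25 measured genes of cholesterol and fatty acid synthesis 22 lay below 0, 3 at least 2-fold, and the median was −0.64 log2. The lanosterol demethylase Cyp51 and the lipid regulator Srebf1 were lower by 1.04 and 1.02 log2. Acacb and Scd1 were the 2 higher genes (2.60 and 1.26). As normexp values only 1 gene was lower and 1 higher, with Cyp51 at −0.69, Srebf1 at −0.80, Scd1 at 0.85 and Acacb at 1.79. Centred on the probe median, 6 genes were lower. Among 26 genes of PPAR targets and fatty acid oxidation 6 were higher and 0 lower, with a median of 0.16. Among the higher genes were Acot1 (2.67), Plin4 (2.63), Angptl4 (2.60), Pdk4 (2.26) and Cd36 (1.51), whereas the mitochondrial oxidation enzymes Cpt2, Hadha, Hadhb and Acadm lay between −0.35 and −0.05. The normexp values of Acot1, Plin4 and Cd36 were 1.95, 1.38 and 0.96. Angptl4 read −0.16, 2.37, 2.43 and −0.06, so that the male transgenic arrays were high and the other arrays low.

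Core energy metabolism was near wild type, and the unfolded protein response, antioxidant and hypoxia lists had medians of 0.01, 0.00 and 0.06 log2. Of all measured genes 8.76% were higher and 2.71% lower, and the antioxidant and hypoxia lists had larger shares of higher genes. Of 34 respiratory chain and ATP synthase genes 1 was lower, Cox6a2 (5.83, 1.83, 3.60 and 4.84, a 4.68-fold lower level), and the median was −0.09. Of 34 genes of glycolysis and the citrate cycle 2 were higher, among them Pdk4, and 1 lower, Pcx. Of 29 unfolded protein response genes 2 were lower, Ddit3 (CHOP, −1.27) and Chac1 (−1.25), and 0 higher, with Hspa5, the main chaperone, at 0.01. Among 28 antioxidant genes 5 were higher, led by Prdx4 and Sod3 (1.91 each), and 1 lower, Nqo1 (−1.12, normexp value −0.70). Hypoxia genes had 3 of 17 higher, Egln3 (2.38), Adm (2.36) and Car9 (2.09), with normexp values of 1.33 for Egln3 and 0.89 for Adm. Of 15 clock genes 2 were lower, Per2 (−1.67) and Hlf (−1.10, normexp value −0.76), with a median of −0.47. Centred on the probe median, 5 clock genes were lower.

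Cell cycle genes of the late phase were in part higher. Of 14 measured G2 and M phase genes 9 passed 2-fold upward and 0 downward, with a median of 1.07 log2, but as normexp values 0 of 14 passed 2-fold and the median was 0.48. Those of Ccnb1 and Mki67 were 0.41 and 0.75. Ccnb1 (cyclin B1) read −3.87, −1.61, −2.33 and −1.51, and Mki67 −0.94, 1.01, 0.07 and 0.59. These levels were dim, and 7 of the 22 listed genes were below background on both arrays. S phase genes had 4 of 18 higher, among them Rrm2 (1.45), and a median of 0.28, and 1 higher as normexp value. The share of higher genes was 8.76% over all measured genes, 18.1% in the dimmest level bin and 10.01% in the next. These lists were not compared with genes of matching level. Of 12 cyclin kinase inhibitors and D cyclins 1 was lower, Cdkn2b (−1.16, normexp value −0.99).

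Lists of channels, receptors and amino acid carriers had medians between −0.23 and 0.18 log2, while part of their members passed 2-fold. Of all measured genes 8.76% were higher and 2.71% lower, and the potassium channel and amino acid carrier lists had larger shares of higher genes. Kcnk9, a tandem-pore potassium channel, read −2.30, −2.57, 1.75 and −0.11 and was 16.5-fold higher on the implanted than on the wild-type array, while the male Tg array differed from it by −0.27 log2. Kcnd3 and Kcnq1, voltage-gated channels, were higher by 2.90 and 2.42 log2, and 4 of 20 potassium channels were higher in all. The normexp values of Kcnk9, Kcnd3 and Kcnq1 were 3.07, 1.65 and 1.75. Kcnj12, an inward rectifier not on that list, read 0.09, −2.81, −3.54 and −2.13 and was 12.4-fold lower, with a normexp value of −1.99. Of 19 measured islet G protein-coupled receptors 3 were higher, Cckar and Ptger3 (4.98 and 4.90) and the vasopressin receptor Avpr1b (1.46), and 3 lower, which besides the incretin receptors was Gpr158 (−1.31). A further 3 receptors of the list had an upward bound of at least 2-fold. Among 19 amino acid carriers 7 were higher and 0 lower, led by the glutamine carriers Slc38a1 and Slc38a5 (2.62 and 2.61) and the glutamate carrier Slc1a1 (2.22). The normexp values of Slc38a1 and Slc1a1 were 1.76 and 0.82. Of 21 measured exocytosis genes 2 were lower, among them Sytl4, 1 was higher, Cplx1 (1.5, normexp value 0.83), and the other 18 lay between the lines. Of 16 calcium and sodium channels 3 were higher, led by Cacna2d2 (2.10), and Trpm5 was lower. Centred on the probe median, 2 were higher and 3 lower. Of 19 apoptosis genes of the BCL2 family and its partners 4 were higher, led by Bcl2a1d (1.29), and 0 lower, with a median of 0.09 and 1 higher as normexp value. Of 9 Schwann cell and nerve genes 3 were higher, led by Ngfr (2.05, normexp value 1.30), and 1 lower, Th (tyrosine hydroxylase, −1.49), with a median of 0.53. Of 4 measured adipocyte genes 1 was lower, Pparg (−1.28).

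Further genes outside the lists marked the low end. Msln (mesothelin, a surface protein of mesothelium) read 3.71, 0.79, −0.06 and −0.01, so all 3 transgenic arrays were low, and the implanted array was 13.7-fold below the wild-type array. Cib3, a calcium-binding protein, read 4.42, −0.96, 1.81 and 2.67, and Rasgrf1, a Ras exchange factor, 4.05, 0.37, 1.62 and 2.12. They were 6.09-fold and 5.38-fold lower, between the male Tg and the wild-type arrays, and the other Rasgrf1 probe gave −1.40. Dok7, an adaptor of the muscle synapse, read 0.61, −2.30, −2.42 and −0.71 and was 8.18-fold lower (normexp value −2.14), as low as on male Tg. At the high end, Glycam1 read −3.15, 1.21, 2.18 and 3.35, highest on the female Tg array, and was 40.2-fold higher on the implanted than on the wild-type array (normexp value 3.91). Ecel1, a neuronal peptidase, was at least 25.2-fold higher, and Cyp1b1, which hydroxylates estradiol, at least 17.3-fold.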

How the data were processed

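The authors' deposited scanner output gives linear intensity per spot, per the file headers, and its background-corrected Cy3 signal was used. The submitters' processing notes name Agilent Feature Extraction 9.5.1.1, whereas the file headers give 10.7.1.1. Probe positions are on mm9. The deposited series matrix holds quantile-normalized intensity of the same probes (median 25.9 in every column) and was used as an alternative.

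Control spots and spots with an outlier flag were left out. The log2 intensity was taken relative to the array's 75th percentile over non-control spots. A gene was measured when the scanner software called its probe well above background on the male WT and male Tg E2 arrays. Of 55681 probes, 27319 were named by accession and 4079 by symbol through RefSeq (GRCm38.p6), and 24283 kept no such name. A gene was represented by its brightest probe (mean of the 4 arrays). Of the 272 genes past 2-fold with several measured probes, 25 had a probe of the opposite sign. A gene above background on 1 array gives a bound against the other array's background limit. Nothing was tested, since each group has 1 array. Analyses used Python 3.11.15, pandas 2.3.3 and, for normexp and quantile normalization, limma 3.58.1 in R 4.3.3. The steps were checked on simulated data.

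The text names the 15 highest and 15 lowest genes, the 5 highest bounds per direction, up to 4 genes per list of at least 2-fold difference, and a fixed set of islet genes, in part as ranges. Other list members, genes outside the lists and the PTF1 letters were chosen after values were seen. The lists and the comparison were chosen with earlier results of these data known. A few genes of this rule are not reported here.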

Additional observations from a re-analysis of the deposited data

How the results depend on the processing

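No paired analysis was possible because each group has 1 array and the labels give no replicate numbers. The count of genes at least 2-fold higher was 1278, and of those lower 395. With normexp background correction the counts were 747 and 255, and with quantile normalization added 639 and 202. Centred on the probe median, 658 genes were lower. Without the filter on dim probes the counts were 2683 and 966, at a 1.5-fold threshold 2093 and 1384, and at 4-fold 335 and 39. Quantile normalization alone, the authors' series matrix, a stricter filter on dim probes, the median over a gene's probes, a further limit of 2 standard errors and, chosen after seeing the data, centring on the median difference moved neither count by over 1.5 times. Over 170 named genes, 1111 of 1349 values under an alternative moved by less than the technical error, 238 by more, and no difference past 2-fold changed sign. Under the 5 other scalings 167 of the 170 kept their sign, and Ins1, Ins2 and Gcg did not. Of 46 list medians 33 kept their sign, and those that did not lay near 0, among them interferon response, antigen presentation and estrogen response. Signal over background limits the dim genes: the share of genes past 2-fold was highest in the dimmest of 4 bins, and the difference of S100g was 8.49 before and 6.20 after normexp with quantile normalization. The number of arrays limits all else, since neither the spread between mice nor that between preparations is known.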
